A study of Sus scrofa with 6 samples.

Results

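The products of miR-199 and miR-214 were followed in the skin of the Xiang pig, a small breed of Sus scrofa from China. The series lists 898 microRNAs (miRNAs), of which 280 have a miRBase-style porcine name. The 5 rows named ssc-miR-199a-3p, ssc-miR-199a-5p, ssc-miR-199b-3p, ssc-miR-199b-5p and ssc-miR-214 were taken by name, with earlier results of these data known. Both 3p rows of miR-199 hold identical values in all 6 libraries and are counted once, as miR-199 3p, which leaves 4 distinct members. ssc-miR-214 is listed with no arm in its name.

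Small RNA was sequenced from 3 white (S02, S06 and S07) and 3 black (S03, S04 and S05) skin libraries. All were labelled Xiang strain, whole skin that had been cleaned with alcohol and freed of hair, and stored cold in the preservative RNAwait. No treatment other than storage is given, and the labels name no animal, age, sex or body site. The p-values therefore measure only the spread between these libraries, which may be technical. A difference between the colours cannot be told apart from a difference in animal, age, sex or body site. The study looks for miRNAs that act on melanin synthesis in this breed, and each member was therefore compared between the skin colours.

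miRNAs are short RNAs that pair through their seed, near the 5′ end, with target messenger RNAs and lower their output. Each hairpin precursor can give a 5p and a 3p product. In mammals the hairpins of miR-199a and miR-199b give 3p products of the same sequence and 5p products that differ slightly and share a seed, so the 3p reads cannot be assigned to a hairpin. miR-214 and one miR-199a copy are made in humans and mice from a long noncoding RNA antisense to DNM3, which the mesenchymal factor TWIST1 activates. The group is known from fibroblasts and other mesenchymal cells. Among described targets are caveolin-1 for miR-199a-5p, the receptor MET for miR-199a-3p, and EZH2, beta-catenin and, in melanoma cells, TFAP2C for miR-214.

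The RefSeq gene table of Sscrofa11.1 placed the 4 precursors at 3 loci, each within the span of a dynamin gene. MIR214 lies on chromosome 9 at 114527992 to 114528101 and MIR199A-1 on the same chromosome at 114533783 to 114533858. Both lie inside DNM3 (114262782 to 114805252), with 5681 bases between them. MIR199A-2 lies on chromosome 2 at 69558051 to 69558130 inside DNM2. MIR199B lies on chromosome 1 at 268691520 to 268691593 inside DNM1. The table gives genes only, without strand, exons or sequence. ssc-miR-199a-5p can thus come from 2 loci, one of them beside MIR214, while ssc-miR-199b-5p comes from another chromosome.

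Values are RPM, the reads of a miRNA scaled to 1000000 reads of all listed miRNAs, deposited as such, and each library rests on 6454685 (S06) to 10165949 (S07) recovered reads. Skin markers were present: ssc-miR-205, a keratinocyte miRNA, measured 11483 to 22514 RPM over the 6 libraries. Names of the keratinocyte list without a row were miR-203, miR-200a, miR-200b, miR-200c and miR-141. The melanocyte miR-211 had no row either. One white library, S02, stood apart on the second principal component of log2(RPM + 1) over the tested miRNAs (20.3% of the variance), at 9.24 against -6.10 to 3.82 for the other libraries, so values without it are given too.

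The members spanned a wide range of levels, and their order was the same in every library. ssc-miR-199b-5p came first, then miR-199 3p, ssc-miR-199a-5p and ssc-miR-214. Together they held 1.88% (S03) to 3.25% (S02) of the reads. ssc-miR-199b-5p ranked 15 (S04) to 19 (S06) among all listed miRNAs, with the shared 3p rows counted once. miR-199 3p ranked 17 to 22, ssc-miR-199a-5p 30 to 33 and ssc-miR-214 69 to 101. The first neighbours in this order were close in white skin. In S06 ssc-miR-199b-5p exceeded miR-199 3p by a ratio of 1.02 only. This ratio was 1.41 in S02 and 1.23 in S07, and 1.52 to 2.18 in black skin. In white skin their group means were 12141 ± 4031 and 9796 ± 1733 RPM (SD, n = 3). These SDs are between libraries, while the order was read within each library. ssc-miR-199b-5p exceeded ssc-miR-199a-5p by 2.72 (S06) to 4.54 (S02) times. These orders compare RPM between miRNAs of like length, and how well each is captured in a library was not measured.

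Of the 4 distinct members, ssc-miR-214 was lower in black skin and the other 3 did not pass the test. Over all 454 tested miRNAs 7.05% were called in either direction and 3.08% as lower in black skin. The groups did not overlap for 2 members, ssc-miR-214 and miR-199 3p, both lower in black skin, and such a lower, non-overlapping pattern held for 13.9% of tested miRNAs. In whole skin, fewer cells of a type and less RNA per cell cannot be told apart.

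**Figure D1:**
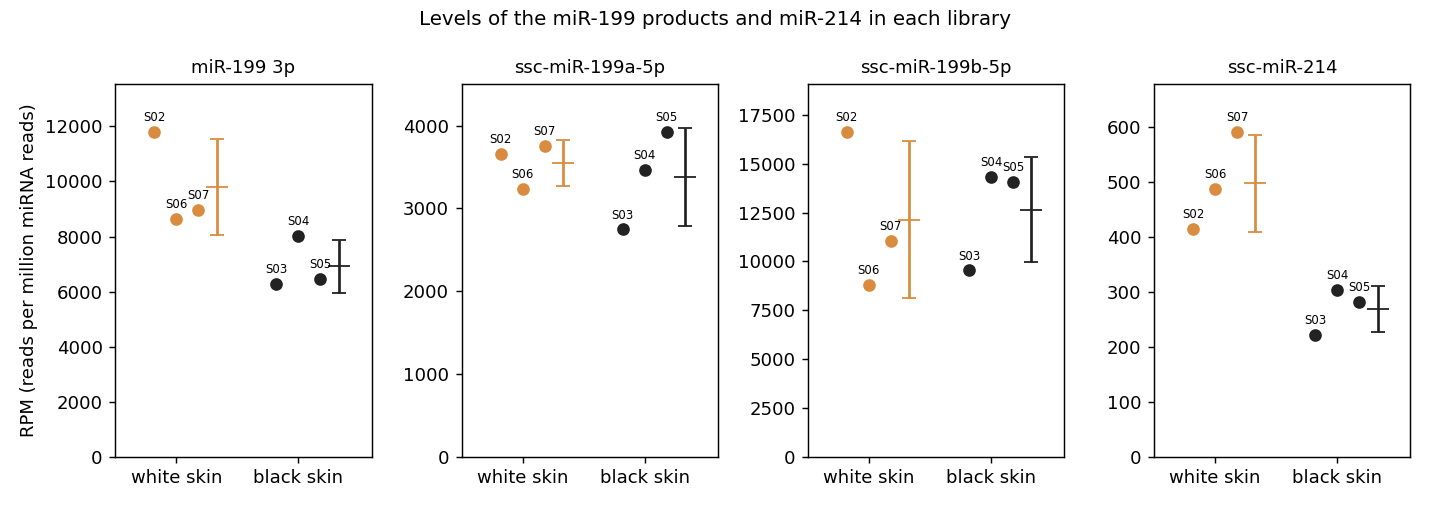
Level of each distinct member in RPM (vertical axes from 0, a scale for each panel) in the 3 white and 3 black libraries; points are libraries, the bar beside them is the group mean with its SD. All black values of ssc-miR-214 lie below all white ones, and the same holds for miR-199 3p by a narrow gap, while both 5p products overlap.

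ssc-miR-214 was found at 414.8 RPM in S02, 486.9 RPM in S06 and 589.8 RPM in S07, all white. The black libraries gave 221.9 RPM in S03, 303.4 RPM in S04 and 281.2 RPM in S05. Every black library lay below the lowest white one, S02. White skin averaged 497 ± 88.0 RPM and black skin 269 ± 42.1 RPM (SD, n = 3), which is 1.85-fold less. The difference in log2(RPM + 1) was -0.88 with a standard error of 0.22 and a 95% interval of -1.37 to -0.40 (limma with Benjamini-Hochberg adjustment over 454 miRNAs, adjusted p = 0.0408). It rests on 1719 (S03) to 5996 (S07) reads per library, for which the exact 95% Poisson interval reached at most 4.84% above and 4.67% below the value, counting error only. That is far below the gap between the groups.

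The call of ssc-miR-214 was near the threshold. On leaving out S02 it held (-1.005, adjusted p = 0.0324), but it was lost without S03 (0.159), S04 (0.0731), S05 (0.113), S06 (0.116) or S07 (0.112), where the difference stayed between -0.75 and -0.98 (limma). With all libraries it held in 9 of 13 other settings, among them edgeR (adjusted p = 0.0418), DESeq2 (0.0201) and limma-voom (0.0481), which called 6.61%, 11.7% and 6.83% of all tested miRNAs. It was lost with TMM factors (0.0540), upper-quartile factors (0.0625), no filter on low counts (0.0845) and no intensity trend in limma (0.0835).

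miR-199 3p, the product shared by the miR-199 hairpins, measured 11788, 8639 and 8960 RPM in S02, S06 and S07. The black libraries gave 6284 RPM in S03, 8015 RPM in S04 and 6457 RPM in S05. The groups did not overlap, but the white S06 and the black S04 were close, and S02 stood above the rest. White skin averaged 9796 ± 1733 RPM, black skin 6919 ± 953 RPM (SD, n = 3). The difference of -0.50 (standard error 0.18, 95% interval -0.91 to -0.08) missed the threshold (limma, adjusted p = 0.134, unadjusted p = 0.0237). Without S02 it was -0.36 (adjusted p = 0.230).

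ssc-miR-199a-5p, the 5p product shared by 2 precursors, measured 3660, 3231 and 3749 RPM in S02, S06 and S07. The black libraries gave 2746 RPM in S03, 3466 RPM in S04 and 3918 RPM in S05. The highest and the lowest of the 6 were both black libraries. The averages, 3547 ± 277 RPM for white and 3377 ± 591 RPM for black (SD, n = 3), differed by -0.08 on the log2 scale, with a 95% interval of -0.49 to 0.32 (limma, adjusted p = 0.821). Without S03, the lowest library, the difference turned to 0.06 (adjusted p = 0.910), and without S02 it was -0.06 (adjusted p = 0.880).

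ssc-miR-199b-5p, the most abundant member, measured 16609, 8777 and 11038 RPM in S02, S06 and S07. The black libraries gave 9539 RPM in S03, 14333 RPM in S04 and 14051 RPM in S05. White skin held both the highest library, S02, and the lowest, S06. The means of 12141 ± 4031 and 12641 ± 2690 RPM (SD, n = 3) differed by 0.09 on the log2 scale, with a 95% interval of -0.50 to 0.67 (limma, adjusted p = 0.884). Without S02 the difference was 0.34 (adjusted p = 0.377), without S06 it was -0.12 (adjusted p = 0.847), and it was just below 0 without S04 or S05, so its sign depended on single libraries. The intervals of both 5p products are wide, so equal levels are not shown.

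**Figure D2:**
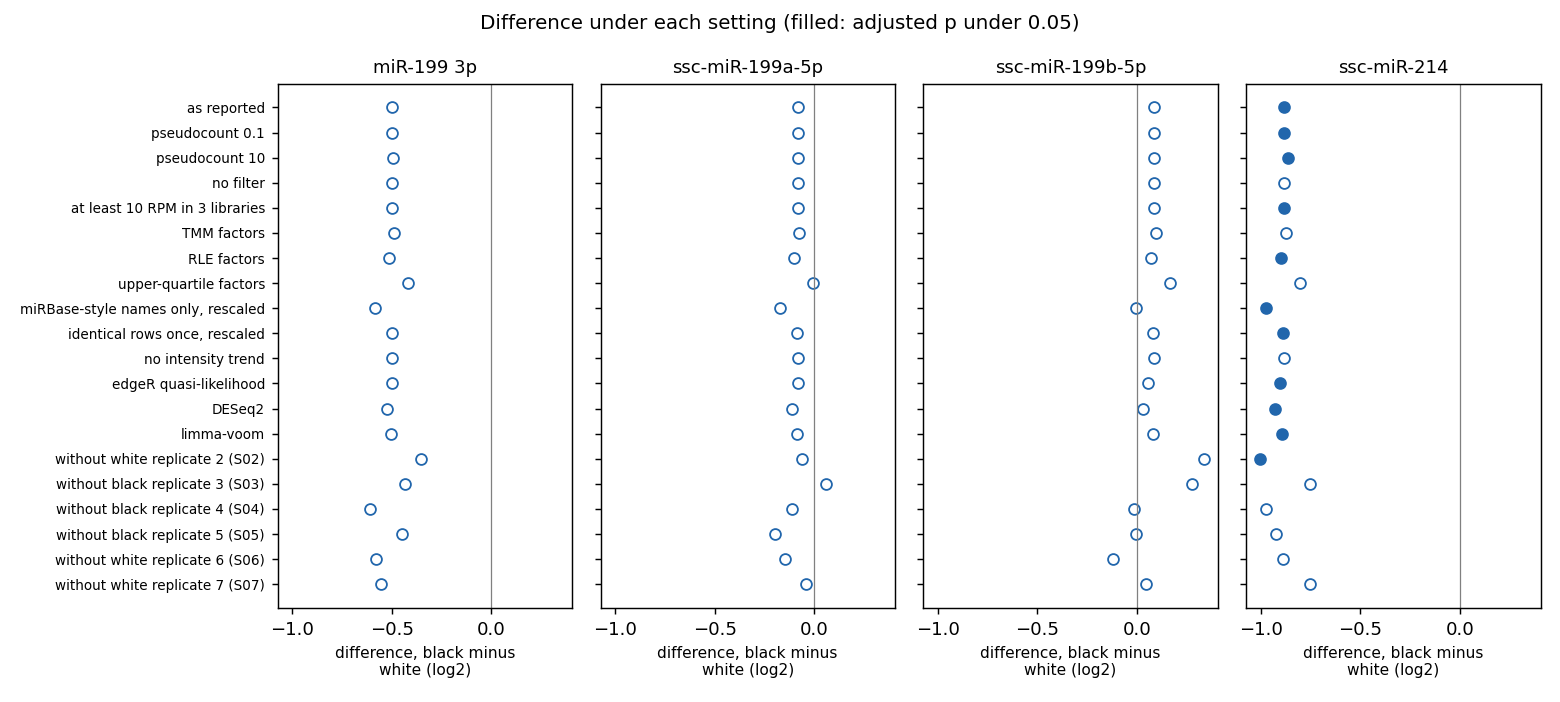
Difference in log2 level, black minus white (horizontal axis), of each distinct member as reported, under 13 other settings and without each of the 6 libraries; filled points have an adjusted p under 0.05. ssc-miR-214 stays between -1.005 and -0.75, miR-199 3p between -0.61 and -0.36, and the 5p products lie on both sides of 0.

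Summed over the 4 members, the level did not separate the skin colours. The sum came to 32471 RPM in S02, 21134 RPM in S06 and 24337 RPM in S07, against 18791 RPM in S03, 26118 RPM in S04 and 24707 RPM in S05. It averaged 25981 ± 5845 RPM for white and 23205 ± 3887 RPM for black (SD, n = 3; exact permutation test, two-sided, p = 0.6), and without S02 the white average was 22736 RPM, below that of black skin. Both 5p products together, which share a seed, averaged 15688 ± 4203 RPM for white and 16018 ± 3234 RPM for black (SD, n = 3; exact permutation test, two-sided, p = 0.9), and without S02 the white average was 13397 RPM.

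Within the group, the shares of 2 members did not overlap between the colours. They are the same 2 whose RPM did not overlap, a pattern that, lower in black skin, 13.9% of tested miRNAs had. Shares within other groups of miRNAs were not computed. Of the members' own reads, ssc-miR-214 made up 1.28%, 2.30% and 2.42% in S02, S06 and S07, and 1.18%, 1.16% and 1.14% in S03, S04 and S05. The white S02 was nearly as low as the black libraries. miR-199 3p made up 36.3%, 40.9% and 36.8% in S02, S06 and S07 and 33.4%, 30.7% and 26.1% in S03, S04 and S05, with no overlap. ssc-miR-199b-5p made up 46.0 ± 4.84% of them in white and 54.2 ± 3.11% of them in black skin, and ssc-miR-199a-5p 14.0 ± 2.35% and 14.6 ± 1.29% (SD, n = 3), and both overlapped between the groups.

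Ratios between members within a library, which scaling to the total does not touch, showed whether the members differed unequally. All 6 pairs of the 4 members went through an exact permutation test, two-sided, which with 3 libraries a group cannot give a p below 0.1, so none could pass 0.05. In 4 of the 6 pairs the groups did not overlap, with an exact permutation p of 0.1 and 0.15 after Benjamini-Hochberg adjustment. Each of these 4 involves ssc-miR-214 or miR-199 3p, whose own RPM did not overlap between the groups either. The 6 pairs are built from 4 values in each library, so they are not independent. Apart from the arm ratios given below, ratios between other miRNAs were not computed, so how common such a separation is was not tested. ssc-miR-214 was 0.113, 0.151 and 0.157 times the level of ssc-miR-199a-5p in S02, S06 and S07, and 0.0808, 0.0876 and 0.0718 times in S03, S04 and S05. This sets the product of MIR214 against one made in part from the neighbouring MIR199A-1. The log2 ratio averaged -2.84 ± 0.26 for white and -3.64 ± 0.14 for black (SD, n = 3), a difference of -0.80, or -0.95 without S02.

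Against ssc-miR-199b-5p, from another chromosome, the ratio of ssc-miR-214 was 0.0250, 0.0555 and 0.0534 in S02, S06 and S07. It was 0.0233, 0.0212 and 0.0200 in S03, S04 and S05. Here S02 sat just above the black libraries and apart from S06 and S07. The log2 difference was -0.97, and it was -1.34 without S02. Against miR-199 3p the ratio of ssc-miR-214 overlapped between the groups, since S02 at 0.0352 fell below the black libraries at 0.0353, 0.0379 and 0.0436 (log2 difference -0.39, exact permutation p = 0.4). The other white libraries, S06 and S07, were at 0.0564 and 0.0658, and the difference was -0.65 without S02 and -0.20 without S07. The ratio of ssc-miR-199b-5p to ssc-miR-199a-5p overlapped too (log2 difference 0.17, exact permutation p = 0.5), and differed by 0.40 without S02, 0.09 without S04, 0.03 without S06 and 0.08 without S07.

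**Figure D3:**
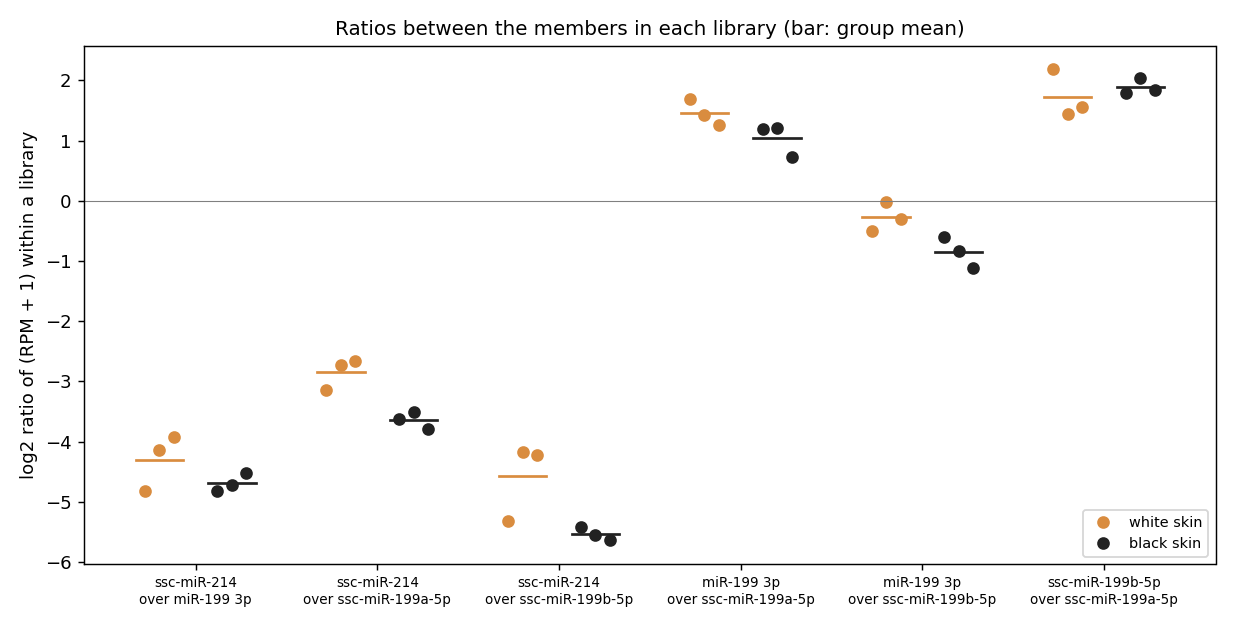
Log2 ratio of (RPM + 1) between each pair of members (vertical axis) in each white and black library, with a bar at each group mean. ssc-miR-214 over ssc-miR-199a-5p, ssc-miR-214 over ssc-miR-199b-5p and both ratios of miR-199 3p to a 5p product lie lower in every black library than in any white one.

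The balance of the miR-199 arms also lay lower in black skin in every library. miR-199 3p was 0.582, 0.719 and 0.606 times the sum of both 5p products in S02, S06 and S07, and 0.512, 0.450 and 0.359 times in S03, S04 and S05. The ratio averaged 0.636 ± 0.0736 for white and 0.440 ± 0.0766 for black (SD, n = 3; exact permutation test, two-sided, p = 0.1, the smallest possible). Among 41 hairpins with both arms tested, neither miR-199 row passed, while 12.2% of hairpins did. The log2 arm ratio differed by -0.41 for ssc-miR-199a (limma, adjusted p = 0.278) and by -0.58 for ssc-miR-199b (limma, adjusted p = 0.167). Without S02 these were -0.30 and -0.69 (limma, adjusted p = 0.488 and 0.0986), and for ssc-miR-199a the difference was -0.25 without S05 (limma, adjusted p = 0.650). No overlap between the groups was seen for 36.6% of these hairpins, and for 24.4% with the ratio lower in black skin, so a separation of this kind was common. Because both rows use the same 3p reads, they are not independent.

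Among named miRNAs of at least 10 RPM on average, 182 were ranked by how much their profile over the 6 libraries resembled that of each member (Pearson's r of log2(RPM + 1)). These are descriptions over 6 libraries that share their scaling and fall into 2 colours. For ssc-miR-214 the closest was ssc-miR-455-3p (r = 0.99), which averaged 230.0 RPM for white and 146 RPM for black, followed by ssc-miR-296-3p, ssc-miR-181b, ssc-let-7c and ssc-miR-9841-3p (r = 0.95 to 0.93). Of these 5, ssc-miR-181b (-1.09, adjusted p = 0.0329) and ssc-let-7c (-0.73, adjusted p = 0.0318) were called lower in black skin (limma). By Pearson's r no miR-199 product was that close. The r of ssc-miR-214 was 0.71 with miR-199 3p, 0.45 with ssc-miR-199a-5p and -0.10 with ssc-miR-199b-5p. By Spearman's rho, a correlation of ranks, miR-199 3p (0.83) was level with ssc-miR-181b (0.83). It was above ssc-miR-9841-3p (0.77) and below ssc-miR-455-3p (0.94). The rho was 0.26 for ssc-miR-199a-5p and -0.09 for ssc-miR-199b-5p.

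The other members had different neighbours. For miR-199 3p they were ssc-let-7g (r = 0.96), ssc-miR-185, ssc-miR-193a-5p, ssc-miR-127 and ssc-miR-339-5p (down to r = 0.92). ssc-miR-127, from an imprinted cluster, measured 99.6 RPM in S02 and 22.1 to 43.2 RPM in the other libraries, and S02 was also the highest library of miR-199 3p. For ssc-miR-199b-5p they were ssc-miR-103 (r = 0.94), ssc-miR-497, ssc-miR-29a, ssc-miR-151-5p and ssc-miR-195. For ssc-miR-199a-5p they were ssc-let-7f (r = 0.90), the red cell miRNA ssc-miR-451 (r = 0.86), ssc-miR-29c, ssc-miR-16 and ssc-miR-532-3p. By Spearman's rho, ssc-miR-532-3p ranked only 43 of 182 for ssc-miR-199a-5p (rho = 0.37). Likewise, ssc-miR-127 ranked 29 for miR-199 3p (rho = 0.71), while the other neighbours named in this paragraph ranked 1 to 8. ssc-miR-451 ranged from 981 RPM (S03) to 4855 RPM (S07), and its part in the spread of ssc-miR-199a-5p was not tested.

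Other miRNAs known from mesenchymal cells and fibroblasts were compared by a list. It was chosen with earlier results of these data known. Its 21 names include miR-145 but not miR-143, which is given below with smooth muscle. miR-409 had no row, and 23 of the list's 24 rows were tested. None was called by limma, edgeR, DESeq2 or limma-voom. At an unadjusted p under 0.05 (limma) 7 were higher and 1 lower in black skin, where 25.6% of all tested miRNAs had such a p. The median difference was 0.27, against 0.00 over all tested miRNAs, and 15 were above 0 and 8 below. Its most abundant rows were ssc-miR-21 (0.19, adjusted p = 0.730), ssc-miR-99a (-0.01, adjusted p = 0.971), ssc-miR-10b (-0.49, adjusted p = 0.154) and ssc-miR-100 (0.15, adjusted p = 0.645, limma). Without S02, limma called 2, ssc-miR-140-3p (0.78, adjusted p = 0.0449) and ssc-miR-145-3p (0.78, adjusted p = 0.0416), both higher in black skin, and without S07 it called ssc-miR-31 (2.15, adjusted p = 0.0255).

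**Figure D4:**
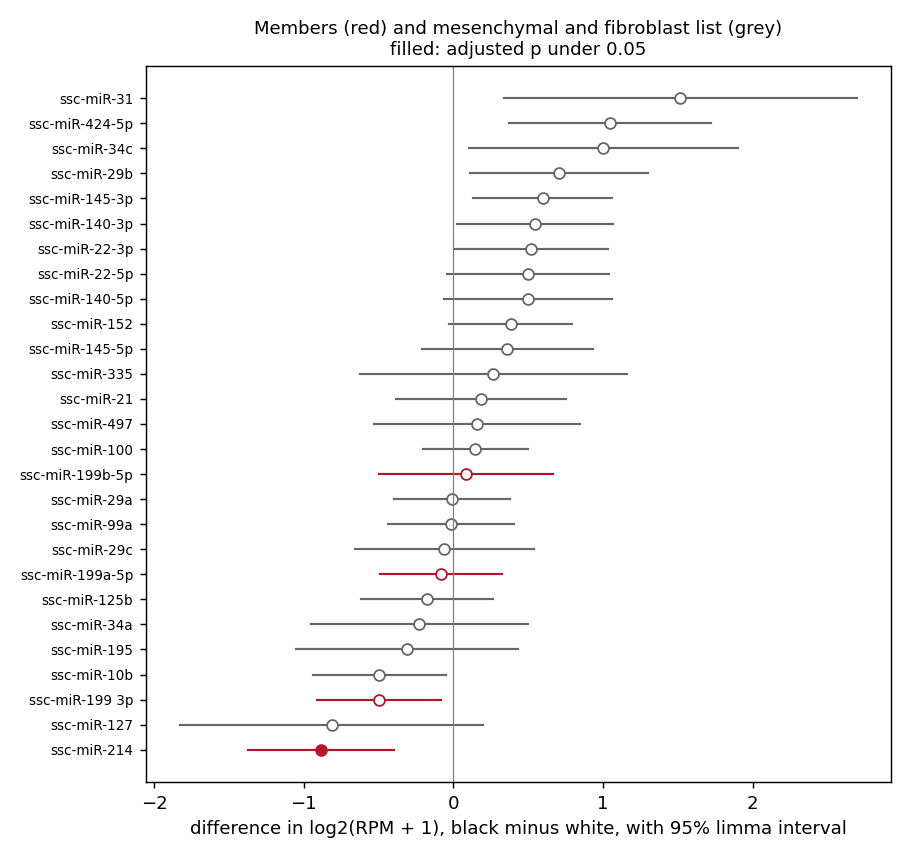
Difference in log2(RPM + 1), black minus white (horizontal axis), with its 95% limma interval for the 4 distinct members (red) and the 23 tested rows of the mesenchymal and fibroblast list (grey), ordered by difference. ssc-miR-214 at -0.88 is the only filled point, that is with an adjusted p under 0.05, and ssc-miR-31 at 1.52 is at the other end.

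Markers of other cells moved with skin colour as well, and their part in the lower ssc-miR-214 of black skin was not tested. ssc-miR-143-3p, from smooth muscle, led a list of 4 tested rows, the arms of miR-143 and miR-145 (miR-145 is also in the mesenchymal list), whose summed level was 26728 to 34192 RPM in white and 64998 to 84502 RPM in black skin, and it was the 1 called (1.29, adjusted p = 0.00314, limma), where 3.96% of all tested miRNAs were called higher. The endothelial ssc-miR-126-3p and ssc-miR-126-5p were both called higher (0.71 and 0.89, adjusted p = 0.0423 each, limma), with a summed level of 17322 to 23899 RPM in white and 28989 to 35450 RPM in black skin. Neither arm was called by edgeR or limma-voom, DESeq2 called 1, and in limma fits without 1 library 0 or 1 was called. Of 5 leukocyte rows ssc-miR-142-3p was called higher (1.96, adjusted p = 0.0324, limma), and the list's sum, led by ssc-miR-146a-5p, overlapped at 2382 to 4860 RPM in white and 3087 to 5239 RPM in black skin. The call of ssc-miR-142-3p was lost without S03, S05 or S06. The other arm, ssc-miR-142-5p, averaged 493 RPM for white and 684 RPM for black and was not called (0.60, adjusted p = 0.433, limma). The log2 ratio of 3p to 5p of this hairpin was higher in black skin (1.37, adjusted p = 0.00358, limma), where 12.2% of 41 hairpins passed.

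None of 5 epithelial rows was called by limma, edgeR, DESeq2 or limma-voom, with 1 at an unadjusted p under 0.05. Their sum was 23475 to 34650 RPM in white and 18739 to 25754 RPM in black skin. None of 3 erythroid rows, led by ssc-miR-451, passed limma, edgeR or limma-voom, with 1 at an unadjusted p under 0.05 and 1 called by DESeq2. Without S05, limma called ssc-miR-486 lower in black skin (-2.28, adjusted p = 0.00924). With all libraries it was at -1.68 (limma, adjusted p = 0.0743). Of the 3 rows, 2 lay below 0 and 1 above. The list's sum was 1723 to 4914 RPM in white and 994 to 4298 RPM in black skin. None of 5 striated muscle rows, led by ssc-miR-1, passed limma, with 1 at an unadjusted p under 0.05 and 1 called by each of edgeR and DESeq2. Without S02, limma called ssc-miR-206 lower in black skin (-3.57, adjusted p = 0.00209). With all libraries its groups overlapped (-2.56, limma, adjusted p = 0.0804). Of the 5 rows, 2 lay below 0 and 3 above. This list's sum was 678 to 2017 RPM in white and 959 to 1604 RPM in black skin. Of the 4 tested rows of the melanocyte list, ssc-miR-221-3p was called lower in black skin (-1.24, adjusted p = 0.0318, limma). Among the fits that leave out 1 library, this call held only without S02. Whether the rows of this list track melanocytes in skin was not tested. The list's sum was 1131 to 1995 RPM in white and 722 to 959 RPM in black skin, and it rests on 3 of the list's 7 names. Of these, ssc-miR-204 lay the other way, averaging 64.5 ± 6.68 RPM for white and 116.3 ± 24.6 RPM for black (SD, n = 3). It was not called (0.82, limma, adjusted p = 0.0804).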

How the data were processed

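Small RNA of 6 skin libraries was compared by skin colour, 3 white and 3 black, grouped by their titles. The authors deposited 1 table in RPM, a unit read from the values, as each column sums to 1000000. The submitters' processing notes list Bowtie and build Sscrofa11.1 but not what each was used for. How reads that match several miRNAs were counted, and with which tool and database, is not given in the sources used here. The table holds 47 rows identical to another row, and such reads enter the total more than once.

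All values (100% per library) were whole multiples of 1 read (tolerance 0.001), so reads were recovered, 1 read being worth 0.0984 to 0.155 RPM. All 6 columns were used and 0 left out. Between libraries, chi-square over degrees of freedom was at least 248.7, so none was a repeat. miRNAs kept by filterByExpr of edgeR 4.0.16 (minimum count 10, minimum total 15), 454 of 898, were tested on log2(RPM + 1), black minus white, with limma 3.58.1 (R 4.3.3, intensity trend). Differences are on that scale and understate those of scarce miRNAs, while the fold given for ssc-miR-214 is the ratio of mean RPM. Benjamini-Hochberg adjustment covered all 454, with a threshold of 0.05. Arm ratios were fitted the same way, without a trend, over 41 hairpins. The script was tested on simulated data. RPM are shares, so an abundant miRNA that changes shifts all others.

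Members and lists were chosen with earlier results of these data known. Named are the members, the 5 named miRNAs most like each, the 4 most abundant and all called rows of the mesenchymal list, and the most abundant and called rows of each marker list. ssc-miR-204, ssc-miR-142-5p and rows of these lists called by limma only on leaving out 1 library were named after their values were seen. Alternatives were scaling, filter, pseudocount (0.1 and 10), feature set, test (edgeR, DESeq2 1.42.0, limma-voom) and each library left out. The labels pair no libraries, so no block was fitted. Sequences were not used here.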

Additional observations from a re-analysis of the deposited data

How the results depend on the processing

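The difference of ssc-miR-214 kept its direction in all 19 alternatives, and that of miR-199 3p kept it, uncalled, in the same 19 (-0.61 to -0.36 over all). ssc-miR-214 lost its call, at nearly the same difference, with no filter (-0.88, adjusted p = 0.0845), TMM factors (-0.87), upper-quartile factors (-0.80) and no intensity trend (-0.88), and the cause was not tested. Without S02 it kept its call at -1.005, and lost it without S03 (-0.750), S04 (-0.975), S05 (-0.920), S06 (-0.889) or S07 (-0.751). All of these fits, that without S02 included, had fewer samples, and why the call was lost was not tested. ssc-miR-199a-5p ranged from -0.198 to 0.0583 without 1 library, turning without S03. ssc-miR-199b-5p ranged from -0.123 to 0.337, turning without S04 (-0.0175), S05 (-0.00308) or S06, and it turned to -0.00399 with miRBase-style names only. That setting moved the median of all miRNAs to -0.14, relative to which ssc-miR-199b-5p was at 0.13 and ssc-miR-214 at -0.83. The sum of the members differed by -5199 to 470 RPM without 1 library, turning without S02, with more in black skin.

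Over all miRNAs 32 were called, 18 higher and 14 lower, against 19 with no intensity trend, 53 with DESeq2 and, with 1 library left out, 41 (S02), 9 (S03), 18 (S04), 7 (S05), 7 (S06) and 14 (S07). With miRBase-style names only, 16 were higher and 19 lower, and with edgeR 13 and 17. The arm ratios and the 6 ratios between members kept their direction in all alternatives run, and none was called. Without 1 library the exact test of those ratios cannot go below 0.2. Counting error is small for all members, and the 3 libraries a group set the precision.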
